A study of Mus musculus with 12 samples.

Results

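The glutathione transferases (GSTs) described here are 10 genes of the alpha, mu, pi and theta classes, taken by gene name from a table of 34986 genes: Gsta2, Gsta3, Gsta4, Gstm1, Gstm2, Gstm3, Gstm4, Gstm6, Gstp1 and Gstt1. All 10 were present in the table and passed the filter on low values, which left 19006 genes to test. The table holds RNA sequencing of 12 livers from female C57BL/6 mice aged 16 weeks, 6 from mice given VPA and 6 from mice given VPA together with OCA (VPA_OCA). VPA is valproic acid, an antiepileptic drug with known liver toxicity, and OCA is obeticholic acid, an agonist of the bile acid receptor FXR, the receptor named in the title of the study. Both groups received VPA and no group is described as carrying an engineered allele, so the comparison measures what differed when OCA was added. Livers of mice without VPA were not analysed here, and the labels used here give neither the dose nor the duration of either drug.

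GSTs join the thiol of glutathione to electrophilic compounds, which are then exported from the cell and processed to mercapturates. Cytosolic GSTs are dimers and are divided by sequence into classes, of which alpha, mu, pi and theta are all made in mouse liver. Many alpha and mu genes are known targets of NRF2, a transcription factor of the response to electrophiles, and of the xenobiotic receptors CAR and PXR. Gsta4 encodes an enzyme known for conjugating 4-hydroxynonenal, a product of lipid peroxidation, and Gstt1 one known for small halogenated substrates.

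Several members have near-identical relatives, which bears on how their reads can be assigned. The first 60 coding bases of the alpha members, read from GENCODE M21 transcripts (GRCm38), are shown 5′ to 3′ with Gsta1, which lies in the same cluster as Gsta2, and capitals mark each base that differs from Gsta2.
Gsta2: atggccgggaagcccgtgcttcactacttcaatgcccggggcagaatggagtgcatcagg
Gsta1: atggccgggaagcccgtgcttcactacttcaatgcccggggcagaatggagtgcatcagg
Gsta3: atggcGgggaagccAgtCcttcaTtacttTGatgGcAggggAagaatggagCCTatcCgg
Gsta4: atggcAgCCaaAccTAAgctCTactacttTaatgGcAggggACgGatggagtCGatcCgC

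Over these 60 bases Gsta1 and Gsta2 were identical, whereas Gsta3 differed from Gsta2 at 13 positions and Gsta4 at 19. Across the whole transcript, 64.2% of the 50-base windows of Gsta2 were also found in a transcript of another gene, 44.8% in Gsta1. Gsta3 and Gsta4 shared 0 windows with any other gene. Whole coding sequences were 75.5% identical between Gsta2 and Gsta3, 67.1% between Gsta2 and Gsta4 and 66.0% between Gsta3 and Gsta4.

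The mu members, which lie together on chromosome 3, are shown in the same way, with capitals for each base that differs from Gstm1, the member with the highest level.
Gstm1: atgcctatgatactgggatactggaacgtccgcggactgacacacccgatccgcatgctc
Gstm2: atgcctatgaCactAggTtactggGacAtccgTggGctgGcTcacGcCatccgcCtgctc
Gstm3: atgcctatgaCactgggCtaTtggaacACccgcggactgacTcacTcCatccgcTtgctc
Gstm4: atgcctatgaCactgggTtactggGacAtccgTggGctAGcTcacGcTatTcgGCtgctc
Gstm6: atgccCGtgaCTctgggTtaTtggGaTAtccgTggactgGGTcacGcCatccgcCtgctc

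Gstm3 differed from Gstm1 at 9 of the 60 positions, the other mu members at 12 to 16. Gstm1 and Gstm3 were also the closest mu pair over the whole coding sequence, at 89.4% identity, with the other mu pairs down to 76.2%. Members of different classes were 47.6% to 53.9% identical. Shared 50-base windows made up 28.8% of Gstm3, 23.1% of Gstm1, 11.5% of Gstm6 and 9.4% of Gstm2, through one another and relatives such as Gstm2-ps1 and Gm8834, and 0 of Gstm4. For Gstp1 the share was 62.3%, with its neighbour Gstp2, and for Gstt1 it was 0. How reads that match several genes were assigned is not given in the sources used here, so the values of Gsta2, Gstp1, Gstm1 and Gstm3 are the less certain ones and those of Gsta3, Gsta4, Gstm4 and Gstt1 are free of such shared windows.

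Promoters were read for the 9 members that matched an entry in the RefSeq table (GRCm38.p6), which gives 250 bases before to 50 bases after each start. The member without an entry was Gsta4, so the matches below say nothing about its promoter. The 9 members held 13 entries. A core of the antioxidant response element, the site bound by NRF2 with its partners, was searched as TGACNNNGC on both strands. It was found in 1 of the 13 entries, that of Gsta3, and in 12.4% of all 32851 promoter entries. Looser forms of this core were not searched, and the other windows may hold them. The Gsta3 window, at chr1:21240335-21240634 on the plus strand, is shown because it held the match, which is in capitals. That of Gsta2, at chr9:78347096-78347395 on the minus strand, is shown because Gsta2 is the member with the second largest difference between groups. The Gsta2 window lies at a RefSeq start inside the deposited span of the gene, chr9:78331018-78355788, and not at the 5′ end of that span.
Gsta3: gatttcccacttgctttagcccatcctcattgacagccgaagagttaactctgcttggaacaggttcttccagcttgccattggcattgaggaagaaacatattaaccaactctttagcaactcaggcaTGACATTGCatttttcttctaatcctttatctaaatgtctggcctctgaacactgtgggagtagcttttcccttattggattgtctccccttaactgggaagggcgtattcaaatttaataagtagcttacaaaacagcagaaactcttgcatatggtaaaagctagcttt
Gsta2: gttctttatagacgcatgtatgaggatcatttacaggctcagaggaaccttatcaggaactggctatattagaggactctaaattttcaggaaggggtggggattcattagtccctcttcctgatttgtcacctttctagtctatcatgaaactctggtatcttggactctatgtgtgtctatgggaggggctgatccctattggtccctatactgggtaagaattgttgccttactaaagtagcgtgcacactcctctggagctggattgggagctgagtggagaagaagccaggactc

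The FXR element, 2 copies of AGGTCA inverted around 1 base, was found in 0 of the 13 entries and in 0.00913% of all entries. A single AGGTCA on either strand, which the inverted repeat also contains, was found in 1 entry of the members, a second start of Gstm1, and in 16.3% of all entries. A match is only a match of letters, and its absence says only that these letters are not in these windows.

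Normalized counts, the unit of the deposited table and already scaled between libraries, summed to between 20236900 and 22087711 per library. The estimated number of reads behind them was 17879222 in VPA replicate 3, 37766890 in VPA_OCA replicate 1 and 19683964 to 22021646 in the others. Replicate numbers from the sample titles ran from 1 to 6 in each group, and the labels do not say what the numbers mark. The difference between numbers 1 to 3 and 4 to 6 took a median of 18.0% of a gene's variation, against 5.93% for the group, so both number sets are given below. Hepatocyte marker sums overlapped between the groups (2316590 to 3330360 in VPA, 2070220 to 3338400 in VPA_OCA; 0 of 8 markers changed). Skeletal muscle markers summed to 528 in VPA replicate 4 and 132 in VPA replicate 5, against 9.49 to 32.1 in the other 10 libraries. In bulk liver, fewer cells of a type and less RNA per cell cannot be told apart.

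The first comparison asked which GST transcripts differed between VPA_OCA and VPA livers. Gsta4 rose 1.98-fold in VPA_OCA, and it was the only member that passed the test over all genes (limma on log2 values, Benjamini-Hochberg adjusted p under 0.05). Gsta2, at 1.78-fold, and Gstt1, at 1.23-fold, were higher in most or all VPA_OCA livers but did not pass. The most abundant members, Gstm1 and Gsta3, did not pass, with log2 fold changes of 0.11 ± 0.32 and -0.05 ± 0.19 (SE from limma). In counts, 1 of 10 members rose, 0 fell and 9 did not pass, and 3 of the 10 had an unadjusted p under 0.05. Over all genes tested, 0.721% passed in either direction and 0.442% were higher in VPA_OCA. A limma unadjusted p under 0.05 was found for 1815 of the 19006 genes. The log2 fold change was positive in 9 of 10 members, with a median of 0.21 and a range of -0.05 to 0.98, while 9488 of the 19006 genes tested were positive.

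**Figure D1:**
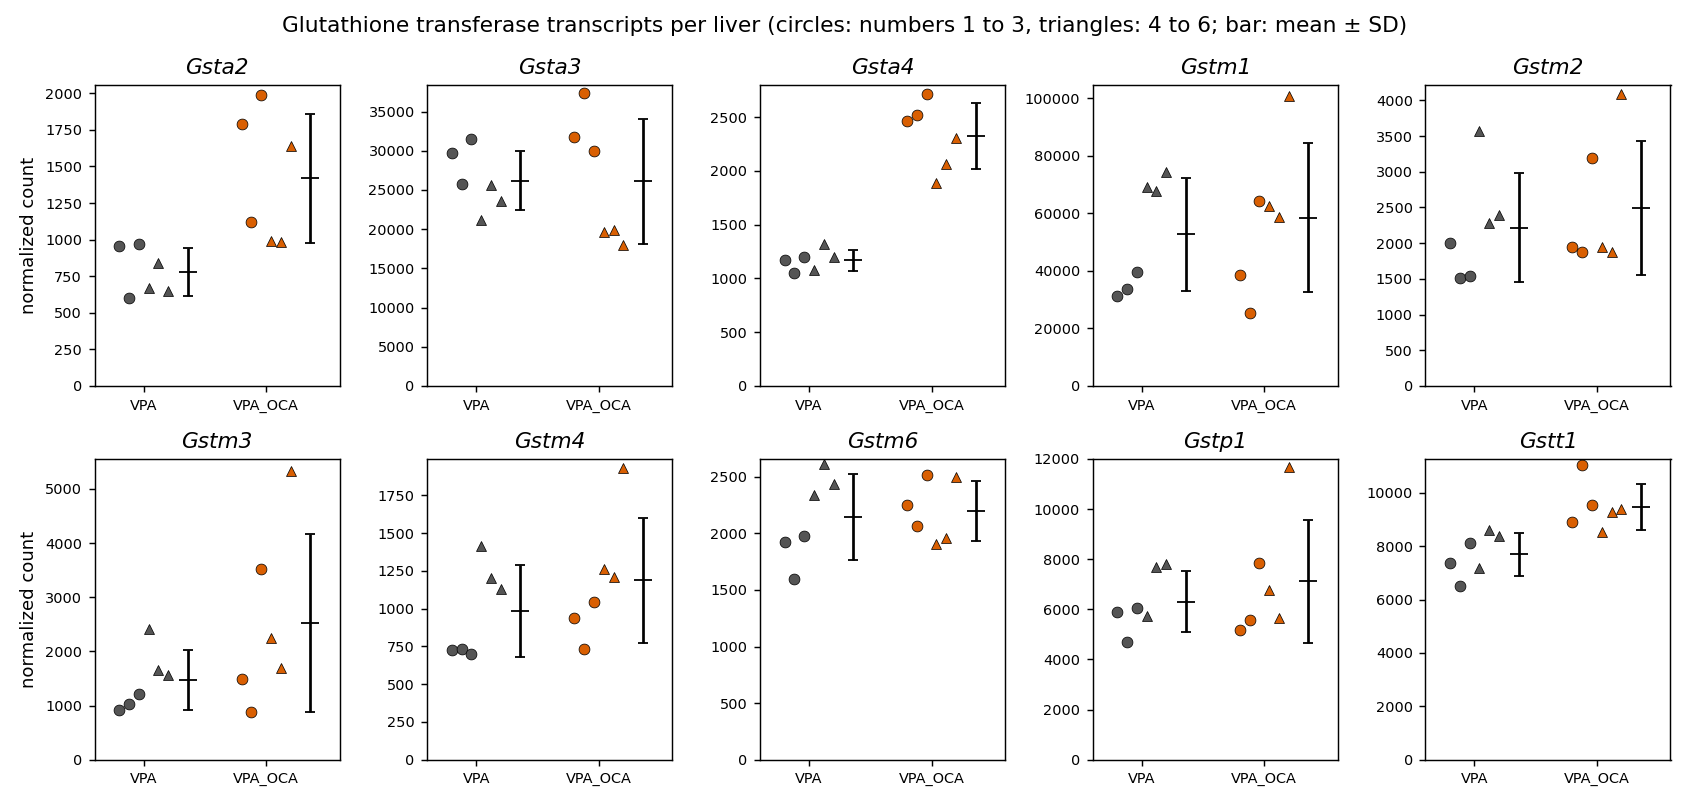
Normalized count of each member in each liver (y axis, from 0) by group (x axis); circles are numbers 1 to 3, triangles numbers 4 to 6, and bars give the mean ± SD of 6 livers. The groups are separate for Gsta4 and Gsta2 and overlap for the other 8 members, and VPA_OCA replicate 6 is the highest point for Gstm1, Gstm2, Gstm3, Gstm4 and Gstp1.

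**Figure D2:**
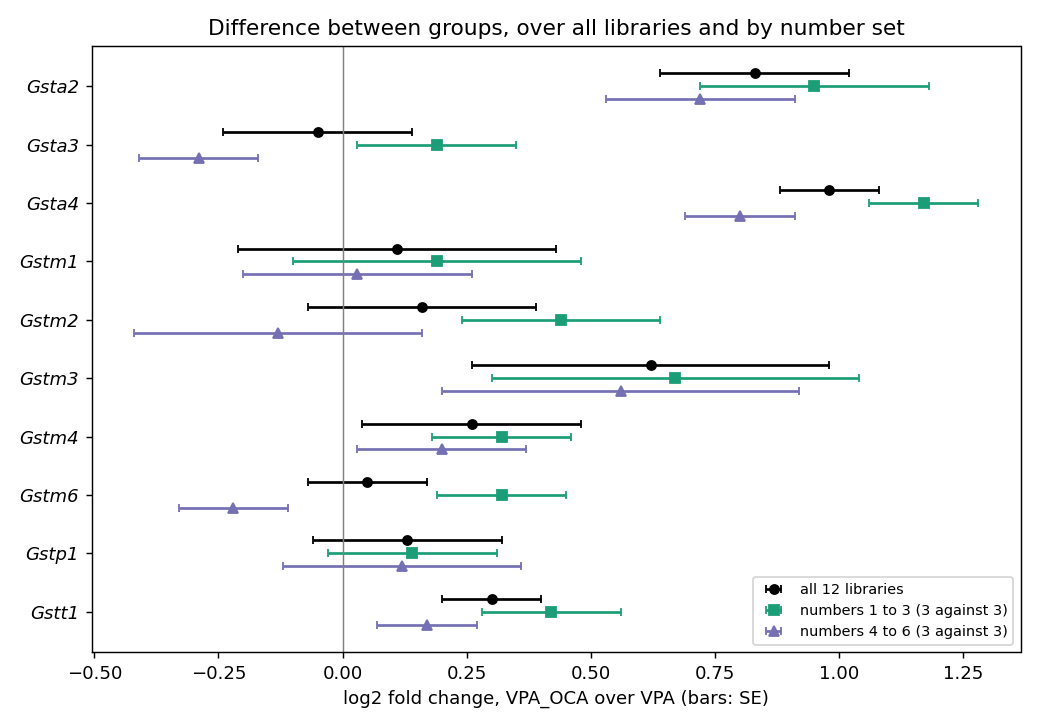
Log2 fold change of VPA_OCA over VPA (x axis) for each member (y axis), with bars of 1 SE from limma, over all 12 libraries (black), numbers 1 to 3 alone (green) and numbers 4 to 6 alone (purple). Gsta4 and Gsta2 lie between 0.72 and 1.17 in each of the 3 estimates, while Gsta3, Gstm2 and Gstm6 change sign between the number sets.

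Among the alpha genes, Gsta4 (ENSMUSG00000032348, chr9:78182774-78209349, plus strand, GRCm38) had a normalized count of 1048 to 1323 in the VPA livers, with a median of 1186. In the VPA_OCA livers it ranged from 1889 to 2717, with a median of 2384. Every VPA_OCA liver therefore lay above every VPA liver, and the lowest VPA_OCA value was that of replicate 4. The means were 1170 ± 98.5 and 2327 ± 307 (SD, n = 6 each), a log2 fold change of 0.98 ± 0.10 (SE; limma adjusted p = 8.9e-05). By p-value Gsta4 was 10th of the 19006 genes tested.

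The difference in Gsta4 was present in both sets of replicate numbers. Among numbers 1 to 3 the means were 1141 ± 81.5 in VPA and 2567 ± 133 in VPA_OCA (SD, n = 3), a log2 fold change of 1.17 ± 0.11 (limma adjusted p = 0.00046). Among numbers 4 to 6 they were 1200 ± 123 and 2086 ± 209 (SD, n = 3), a log2 fold change of 0.80 ± 0.11 (limma adjusted p = 0.02). The effect in numbers 4 to 6 was smaller by 0.37 ± 0.15 on the log2 scale (interaction term in limma, adjusted p = 0.54, which did not pass). Without the 2 VPA libraries that held muscle transcripts Gsta4 still passed (limma adjusted p = 0.00095).

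Gsta2 (ENSMUSG00000057933, chr9:78331018-78355788, minus strand) lies farther along chromosome 9 than Gsta4 and encodes an alpha subunit known as an inducible liver GST. It ranged from 598 to 972 in VPA, with a median of 753, and from 986 to 1988 in VPA_OCA, with a median of 1382. The groups did not overlap, but VPA_OCA replicates 4 and 5, at 992 and 986, lay just above the highest VPA liver. The means were 780 ± 165 and 1420 ± 441 (SD, n = 6 each), a log2 fold change of 0.83 ± 0.19 with a limma adjusted p of 0.067. With the replicate number as a block the limma adjusted p was 0.0075, and with a term for numbers 1 to 3 against 4 to 6 it was 0.016. Each of these fits called 2 members, Gsta4 and Gsta2, where 0.679% of all genes were higher with the block and 1.34% with the term. Non-overlapping groups with VPA_OCA higher were found for these same 2 members and for 0.916% of all genes.

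Because Gsta2 shares sequence with its neighbours, the values of the cluster were also summed. Gsta1, Gsta2, Gm3776 and Gm10639 together came to 1169 ± 425 in VPA and 1911 ± 845 in VPA_OCA (SD, n = 6 each), 1.59-fold higher on the log2 mean. These sums overlapped between groups, with 3 VPA_OCA livers above the highest VPA liver. Gsta1 alone was 250 ± 177 in VPA and 293 ± 225 in VPA_OCA (SD, n = 6 each; log2 fold change 0.04, limma adjusted p = 1). The separation of the groups was thus seen in the reads assigned to Gsta2 and not in the sum over the cluster.

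Within 100 kb of Gsta4 there were 5 other protein-coding genes, and none passed the test. The nearest, Ick, a kinase gene 10667 bases away, was at 245 ± 36.3 in VPA and 260 ± 48.9 in VPA_OCA (SD, n = 6 each; log2 fold change 0.08). Fbxo9, which encodes an F-box protein, was at 1004 ± 62.0 and 969 ± 117 (SD, n = 6 each; log2 fold change -0.06). The other 3 were Gsta1, Gm3776 and Gm10639, with log2 fold changes of 0.04, 0.26 and -0.08. The limma adjusted p of the 5 neighbours was 0.92 to 1.

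Gsta3 (ENSMUSG00000025934, chr1:21240589-21265661, plus strand) had the most abundant transcript of the alpha members in these livers. It ranged from 21110 to 31460 in VPA, with a median of 25645, and from 17950 to 37420 in VPA_OCA, with a median of 24870. The VPA_OCA livers lay on both sides of the VPA range, 2 above its highest value and 3 below its lowest. The means were 26198 ± 3819 and 26080 ± 8014 (SD, n = 6 each), a log2 fold change of -0.05 ± 0.19 (limma adjusted p = 0.97).

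The spread of Gsta3 followed the replicate numbers. In VPA_OCA the livers numbered 1 to 3 averaged 33010 ± 3923 and those numbered 4 to 6 averaged 19150 ± 1042 (SD, n = 3). In VPA the same sets averaged 28957 ± 2939 and 23440 ± 2237 (SD, n = 3). The sets did not overlap within either group, with numbers 4 to 6 lower in both, as for 15.1% of all genes in VPA and 15.9% in VPA_OCA. The log2 fold change between groups was 0.19 (limma adjusted p = 0.68) within numbers 1 to 3 and -0.29 (limma adjusted p = 0.4) within numbers 4 to 6. The interaction term was -0.48 ± 0.20 (limma unadjusted p = 0.029, adjusted p = 0.55).

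The mu class supplied most of the GST transcripts and had the widest spread between livers. None of its 5 members passed the test in any of the 3 fits over all 12 libraries. Gstm1 (ENSMUSG00000058135, chr3:108012255-108017973, minus strand), the major mu subunit of mouse liver, ranged from 31370 to 74250 in VPA, with a median of 53660, and from 25330 to 100800 in VPA_OCA, with a median of 60685. Both the lowest and the highest liver for Gstm1 were in VPA_OCA, replicates 2 and 6. The means were 52650 ± 19727 and 58382 ± 25860 (SD, n = 6 each), a log2 fold change of 0.11 ± 0.32 (limma adjusted p = 0.96).

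Gstm3 (ENSMUSG00000004038, chr3:107963696-107969283, minus strand) had the largest log2 fold change of the mu genes, 0.62 ± 0.36, with a limma adjusted p of 0.66. It ranged from 912 to 2419 in VPA, with a median of 1392, and from 874 to 5336 in VPA_OCA, with a median of 1968. Only 2 VPA_OCA livers, replicates 3 and 6 at 3522 and 5336, exceeded the highest VPA liver, while replicate 2 was the lowest of all 12. The means were 1466 ± 552 and 2526 ± 1641 (SD, n = 6 each). Without VPA_OCA replicate 6 the log2 fold change was 0.35 (limma adjusted p = 0.78).

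The other 3 mu genes lay in between. Gstm4 (ENSMUSG00000027890, chr3:108040408-108044894, minus strand) was at 985 ± 305 in VPA and 1187 ± 412 in VPA_OCA (SD, n = 6 each), a log2 fold change of 0.26 (limma adjusted p = 0.8). For Gstm4 this was 0.11 without VPA_OCA replicate 6, 0.17 without VPA replicate 3 and 0.49 without the 2 VPA libraries that held muscle transcripts. Gstm2 (ENSMUSG00000040562, chr3:107981702-107986453, minus strand) was at 2218 ± 761 and 2489 ± 936 (SD, n = 6 each), a log2 fold change of 0.16 (limma adjusted p = 0.9). Gstm6 (ENSMUSG00000068762, chr3:107938847-107943749, minus strand) was the steadiest mu gene, at 2147 ± 379 and 2200 ± 265 (SD, n = 6 each), a log2 fold change of 0.05 (limma adjusted p = 0.96). Its difference between groups had opposite signs in the number sets, 0.32 within 1 to 3 and -0.22 within 4 to 6. The interaction term for Gstm6 was -0.54 ± 0.17 (limma unadjusted p = 0.0075, adjusted p = 0.43). Of the 10 members, 0 passed the interaction test and 3 (Gstm6, Gsta4 and Gsta3) had an unadjusted p under 0.05. Of all genes tested, 0.0105% passed it and 1588 had an unadjusted p under 0.05.

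Within VPA, all 5 mu members were higher in every liver numbered 4 to 6 than in every liver numbered 1 to 3. The same was true of 15.7% of all genes, so such a split is common in these livers. The ratio of the set means in VPA was 2.02 for Gstm1, 1.79 for Gstm3, 1.74 for Gstm4, 1.64 for Gstm2 and 1.34 for Gstm6. Within VPA_OCA only Gstm4 was separated in this way, with a ratio of 1.62, where 16.4% of all genes were. For Gstm1 the VPA sets averaged 34920 ± 4250 and 70380 ± 3436, and the VPA_OCA sets 42707 ± 19857 and 74057 ± 23246 (SD, n = 3). Gsta3 ran in the opposite direction in both groups. Some markers of liver cells also differed between the sets, in VPA, in VPA_OCA or in both. Hepatocyte markers summed to a mean of 2612503 and 2967297 in the VPA sets and 2245340 and 3154480 in the VPA_OCA sets. Cholangiocyte markers summed to 1224 and 1187 in the VPA sets and 1518 and 2060 in the VPA_OCA sets. Kupffer cell markers summed to a mean of 5817 and 10292 in the VPA sets and 6858 and 7452 in the VPA_OCA sets, and endothelial markers to 4194 and 6733, and 4391 and 4982. Stellate cell markers summed to 6257 and 8736 in the VPA sets and 5700 and 8042 in the VPA_OCA sets. Between the treatment groups 0 of the 10 markers of each of the Kupffer cell, endothelial and stellate cell lists changed, and none of them had a median of 0. Over all livers the Kupffer sums ranged from 4697 to 12901 in VPA and from 5159 to 8764 in VPA_OCA, the endothelial sums from 3838 to 7009 and from 3846 to 5849, and the stellate sums from 5964 to 9494 and from 5066 to 8419. The part of these cell markers in the levels of the mu genes was not tested.

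**Figure D3:**
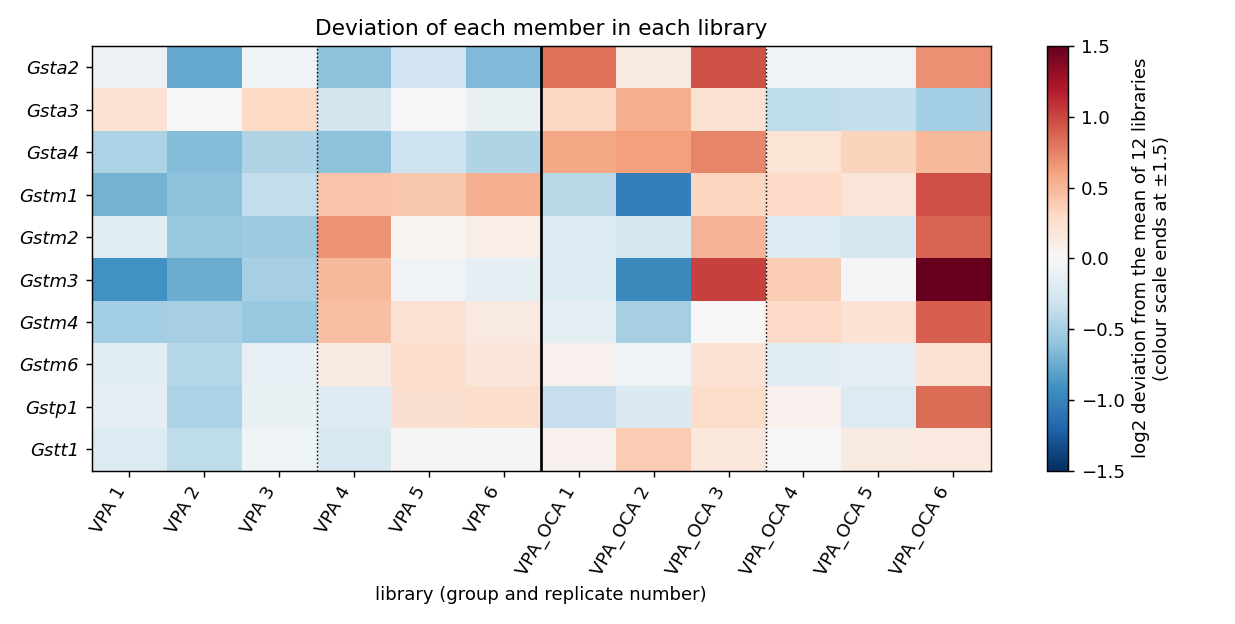
Log2 deviation of each member (rows) from its own mean over 12 libraries, in each library (columns; blue lower, red higher, colour scale ending at ±1.5); the solid line divides the groups and dotted lines divide numbers 1 to 3 from 4 to 6. Gsta4 changes colour at the solid line and Gsta2 does so except in VPA_OCA replicates 4 and 5, at -0.04 and -0.05, whereas Gstm1 and Gstm4 change at the dotted line within VPA and VPA_OCA replicate 6 is deep red for the mu genes other than Gstm6 and for Gstp1.

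The pi gene Gstp1 (ENSMUSG00000060803, chr19:4035407-4037921, minus strand) ranged from 4711 to 7822 in VPA, with a median of 5960, and from 5160 to 11660 in VPA_OCA, with a median of 6209. The highest value was again VPA_OCA replicate 6, and only 2 VPA_OCA livers exceeded the highest VPA liver. The means were 6311 ± 1213 and 7111 ± 2436 (SD, n = 6 each), a log2 fold change of 0.13 ± 0.19 (limma adjusted p = 0.89). Summed with Gstp2, with which it shares sequence, it came to 6343 ± 1225 and 7151 ± 2432 (SD, n = 6 each), so Gstp2 added little to the level.

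The theta gene Gstt1 (ENSMUSG00000001663, chr10:75783813-75798584, minus strand) had one of the narrowest spreads. It ranged from 6521 to 8599 in VPA, with a median of 7743, and from 8534 to 11050 in VPA_OCA, with a median of 9348. In VPA_OCA 5 of 6 livers lay above the highest VPA liver, and replicate 4, at 8534, lay just below it. The means were 7698 ± 798 and 9458 ± 863 (SD, n = 6 each), a log2 fold change of 0.30 ± 0.10 (limma unadjusted p = 0.0081, adjusted p = 0.26). Neither the block (limma adjusted p = 0.23) nor the term for the number sets (limma adjusted p = 0.11) brought it past the threshold.

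The authors' deposited table calls 3 members higher in VPA_OCA at an adjusted p under 0.05, where it calls 3.34% of its 12517 tested genes higher. In the authors' deposited table Gsta4 has a log2 ratio of 0.98 (adjusted p = 6.4e-08), Gsta2 of 0.84 (adjusted p = 0.00023) and Gstm3 of 0.80 (adjusted p = 0.041). For Gstt1 the authors' deposited table gives 0.29 (adjusted p = 0.084). The other 6 members have log2 ratios between -0.05 and 0.28 in the authors' deposited table, with adjusted p-values of 0.15 or more. Gsta4 was thus called in both analyses. Gsta2 was called in the deposited table and, here, only with the block or the term, and Gstm3 only in the deposited table.

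The livers did not rank alike for the 10 members. VPA replicate 2 was the lowest VPA liver for 6 of them (Gsta2, Gsta4, Gstm2, Gstm6, Gstp1 and Gstt1). VPA_OCA replicate 6 was the highest of its group for 5 (Gstm1, Gstm2, Gstm3, Gstm4 and Gstp1) and the lowest for Gsta3. There it lay above the 12-library mean by 1.63 for Gstm3, 0.97 for Gstm1, 0.90 for Gstm4, 0.87 for Gstm2 and 0.84 for Gstp1 on the log2 scale. VPA_OCA replicate 3 was the highest for Gsta2, Gsta4 and Gstm6. VPA_OCA replicate 2 was the highest for Gsta3 and Gstt1 and the lowest for Gstm1, Gstm3 and Gstm4. Gsta3 and the mu members could therefore be at opposite ends of the group in the same liver.

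The variation of each member over the 12 libraries was split into the part of the group, that of the number sets, that of their combination and the rest. The group took 91.7% for Gsta4, 58.1% for Gsta2 and 57.7% for Gstt1, and 0.633% to 16.8% for the other 7. The number sets took 72.8% for Gsta3, 70.3% for Gstm4 and 65.3% for Gstm1. For Gstm6 the combination of group and number set took 43.0%. For Gstp1, Gstm2 and Gstm3 the rest, the spread between livers of the same group and set, was the largest part, at 71.8%, 65.2% and 56.9%. The median over all genes was 53.8% for the rest. The members thus divided into 3 that varied mainly with the group, 3 that varied mainly with the number sets and 4 that did neither.

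**Figure D4:**
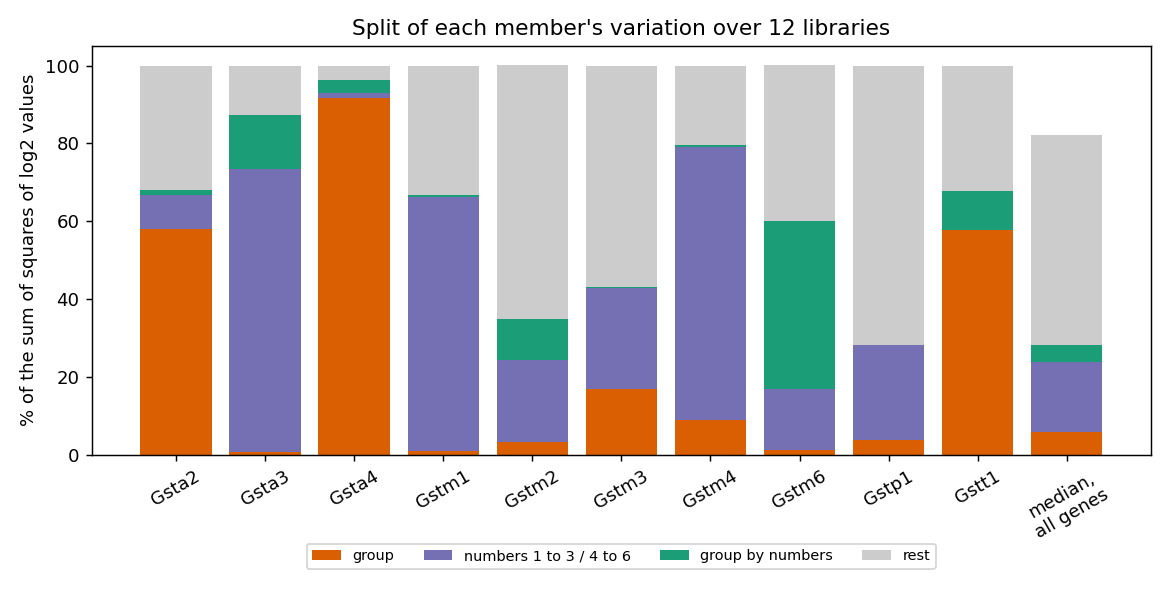
Share of each member's sum of squares of log2 values over 12 libraries (y axis, percent) taken by group, by numbers 1 to 3 against 4 to 6, by their combination and by the rest (colours), with the medians over all tested genes, taken part by part and so not adding to 100, at the right. Group is the largest part for Gsta4 (91.7%), Gsta2 (58.1%) and Gstt1 (57.7%), and number set for Gsta3 (72.8%), Gstm4 (70.3%) and Gstm1 (65.3%).

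Levels of different members were compared per length, as the deposited FPKM (fragments scaled to gene length and library total). Gstm1 was the highest in both groups, with an FPKM of 2734 ± 1021 in VPA and 3066 ± 1392 in VPA_OCA (SD, n = 6 each), 37th and 31st among all genes. Gsta3 followed at 830 ± 108 and 833 ± 252 (SD, n = 6 each), and its range did not overlap that of Gstm1 or of Gstt1, the next. Gstt1, at 413 ± 34.7 in VPA and 511 ± 43.6 in VPA_OCA, overlapped with Gstp1, at 388 ± 68.1 and 443 ± 158 (SD, n = 6 each). Gstp1 in turn lay above Gstm2 in every liver. Gstm2, at 124 ± 44.3 and 141 ± 55.7, overlapped with Gstm6, at 108 ± 18.5 and 112 ± 16.0 (SD, n = 6 each).

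The order changed only among the lower members. In VPA, Gsta4 was 7th at 63.5 ± 4.38 and its range lay below that of Gstm6. In VPA_OCA it was 6th at 127 ± 18.7 (SD, n = 6 each), with a range that overlapped those of Gstm2 and Gstm6. Gsta2 (53.2 and 98.5), Gstm3 (52.4 and 91.4) and Gstm4 (35.1 and 42.5, mean FPKM in VPA and VPA_OCA) came after it, each overlapping with the next in both groups. The gain in Gsta4 therefore moved it by 1 place, among members well below Gstm1.

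By class, the 5 mu members made up 61.9% of the summed FPKM of the 10 members in VPA and 60.9% in VPA_OCA, means over 6 livers. The 3 alpha members made up 21.0% and 21.1%, Gstp1 8.23% and 8.02%, and Gstt1 8.87% and 9.94%. The summed FPKM of all 10 was 4802 ± 1077 in VPA and 5466 ± 1515 in VPA_OCA (SD, n = 6 each), a difference smaller than the spread within either group. The mu share within VPA was 53.8% ± 2.62 in numbers 1 to 3 and 70.1% ± 2.70 in numbers 4 to 6 (SD, n = 3). In VPA_OCA the same sets were at 52.1% ± 11.4 and 69.8% ± 3.88 (SD, n = 3). The gap in share came from Gstm1: the other 4 mu members together made up 6.53% and 6.78% in the VPA sets and 7.21% and 6.73% in the VPA_OCA sets.

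**Figure D5:**
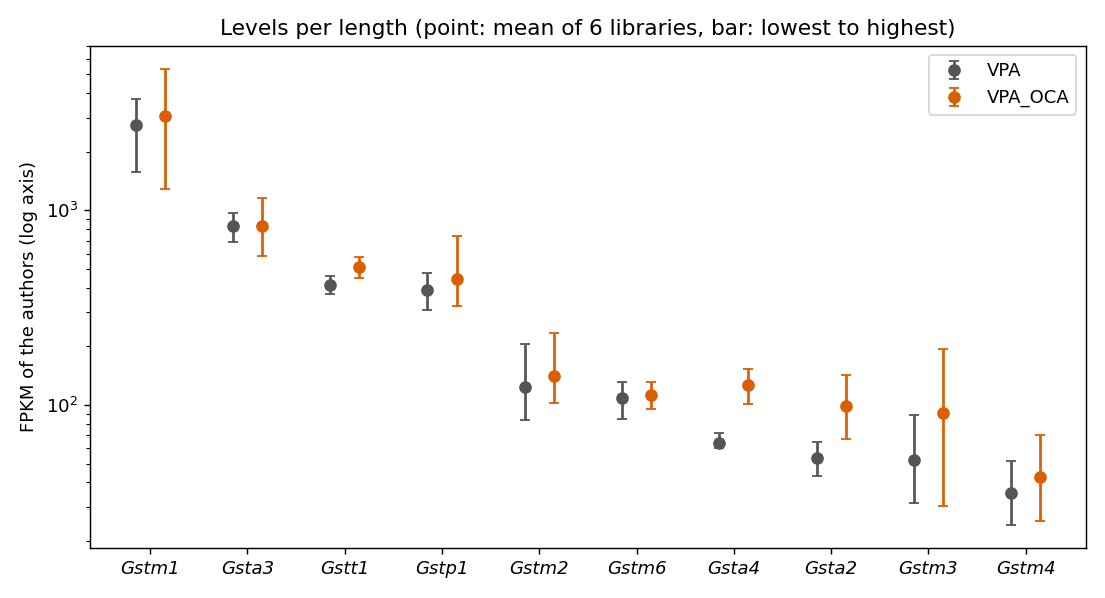
FPKM of each member (y axis, log scale) in VPA (grey) and VPA_OCA (orange), as the mean of 6 livers with bars from the lowest to the highest. Gstm1 (2734 and 3066) and Gsta3 (830 and 833) lead in both groups, and only Gsta4 and Gsta2 have bars that do not overlap between the groups.

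Genes with the most similar profile over the 12 libraries were taken by Pearson's r of log2 values among 8934 genes with a mean of at least 100. These are descriptions over 12 libraries that share the same 2 groups and number sets. For Gsta4 they were Paxx, a DNA repair factor (r = 0.95; log2 fold change 1.08), Bdh2, a hydroxybutyrate dehydrogenase (r = 0.95; 0.72), and Slc25a12, a mitochondrial aspartate-glutamate carrier (r = 0.95; 0.28). For Gstt1 they were Thyn1 (r = 0.95), Bdh2 (r = 0.93) and Pemt (r = 0.93), which makes phosphatidylcholine. For Gsta3 they were Bnip3, Rnf7 and Ppp1r1b (r = 0.96 to 0.97), and for Gstm1 the glycolytic enzyme Eno1, Tkfc and Cyb5r3 (r = 0.97 each). For Gstp1 the closest genes reached only r = 0.85 (Pqbp1 and Tomm6) and 0.82 (Samm50). Gsta2, which the naming rule did not cover and which was added after its values were seen, was closest to Nqo1 (r = 0.92), a quinone reductase and widely used NRF2 target. Next for Gsta2 were Fth1 (r = 0.88; log2 fold change 0.15) and Dnajc4 (r = 0.87; 0.29).

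The other GST genes of the table, 17 tested, held 0 that passed the test, with 15 positive log2 fold changes and a median of 0.12. With the smallest p among them, Gstt2, a theta gene that lies near Gstt1 on chromosome 10, was at 2657 ± 254 in VPA and 3580 ± 566 in VPA_OCA (SD, n = 6 each), a log2 fold change of 0.42 ± 0.11 (limma adjusted p = 0.11). Its groups did not overlap. The limma adjusted p was 0.076 with the replicate block, which did not pass, and 0.017 with the term for number sets. Gstm7, another mu gene, was at 1305 ± 146 and 1528 ± 97.7 (SD, n = 6 each), a log2 fold change of 0.23 (limma adjusted p = 0.36).

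Of the 22 genes of glutathione synthesis and recycling, 0 rose and 1 fell, with a median log2 fold change of -0.15. The log2 fold change was positive in 8 of the 22 and negative in 14. The gene that fell was Slc1a5, a glutamine transporter, from 87.4 ± 15.6 to 46.4 ± 13.3 (SD, n = 6 each; log2 fold change -0.93 ± 0.19, limma adjusted p = 0.037). Its limma adjusted p was above the threshold, at up to 0.093, when any single library other than VPA replicate 6 or VPA_OCA replicate 6 was left out. With the term for number sets 3 genes of this list rose, Gclm, Chac1 and Taldo1, named after their values were seen, where 1.34% of all genes did. With the replicate block 0 of this list rose, and the limma adjusted p of these 3 was 0.068, 0.1 and 0.12. Gclm, the modifier subunit of the rate-limiting enzyme of glutathione synthesis, was at 2519 ± 466 in VPA and 3283 ± 286 in VPA_OCA (SD, n = 6 each), with a limma adjusted p of 0.18 for the group alone, 0.068 with the block and 0.025 with the term. Over all libraries Gclc, which encodes the catalytic subunit of the same enzyme, had a difference of the opposite sign that did not pass. Gclc was at 2501 ± 260 in VPA and 2103 ± 251 in VPA_OCA (SD, n = 6 each; log2 fold change -0.25, limma adjusted p = 0.39). Within numbers 1 to 3 the log2 fold change was -0.51 for Gclc and 0.20 for Gclm. Within numbers 4 to 6 it was 0.00 for Gclc and 0.59 for Gclm. The interaction term did not pass for either gene (limma adjusted p = 0.36 for Gclc and 0.53 for Gclm).

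Of 23 NRF2 regulators and targets outside glutathione synthesis, 0 passed, 17 were positive and the median log2 fold change was 0.07. Nqo1, the gene closest to Gsta2 in profile, was at 251 ± 22.3 in VPA and 361 ± 75.7 in VPA_OCA (SD, n = 6 each; log2 fold change 0.50, limma adjusted p = 0.13, 0.056 with the block and 0.041 with the term for number sets). Srxn1, which encodes sulfiredoxin, was at 691 ± 86.4 and 857 ± 131 (SD, n = 6 each; log2 fold change 0.31, limma adjusted p = 0.33). None of the 22 tested genes of conjugate export and mercapturate formation passed, and none of the 10 glutathione peroxidases and glyoxalases did, with medians of -0.06 and 0.05. The smallest p in these lists were those of Nat8f1, an acetyltransferase family gene (log2 fold change 0.59, limma adjusted p = 0.13), and Gpx2, a peroxidase near the detection limit at 0.373 ± 0.582 and 3.26 ± 2.87 (SD, n = 6 each; limma adjusted p = 0.21). Next were Ggt5, a gamma-glutamyl transferase (log2 fold change -0.46, limma adjusted p = 0.39), and Gpx7 (0.45, limma adjusted p = 0.42).

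Of 23 genes listed as the receptors CAR, PXR and AHR with their targets, 1 rose and 1 fell, with a median log2 fold change of -0.08. Sult1e1, the estrogen sulfotransferase, rose from 38.0 ± 14.4 to 132 ± 60.4 (SD, n = 6 each; log2 fold change 1.76 ± 0.30, limma adjusted p = 0.01). Its log2 fold change was 1.89 (limma adjusted p = 0.012) within numbers 1 to 3 and 1.62 (limma adjusted p = 0.084) within numbers 4 to 6. Cyp2b9, a female-biased P450, fell from 9553 ± 1062 to 6372 ± 721 (SD, n = 6 each; log2 fold change -0.58 ± 0.11, limma adjusted p = 0.014). Within numbers 1 to 3 the log2 fold change of Cyp2b9 was -0.75 (limma adjusted p = 0.026) and within numbers 4 to 6 it was -0.41 (limma adjusted p = 0.25). Cyp2b10, a CAR target named after its values were seen, was at 195 ± 149 in VPA and 34.5 ± 11.7 in VPA_OCA (SD, n = 6 each), with a limma adjusted p of 0.078 for the group alone and 0.011 with the block. Its VPA mean was 63.6 ± 19.7 in numbers 1 to 3 and 326 ± 58.8 in numbers 4 to 6 (SD, n = 3). The log2 fold change of Cyp2b10 was -1.14 (limma adjusted p = 0.3) within the first set and -3.07 (limma adjusted p = 0.00022) within the second.

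Among markers of liver and other cells, 3 of 12 pericentral hepatocyte markers fell (Slc1a2, Rhbg and Lhpp), where 0.279% of all genes did, 0 of 10 periportal markers changed and 1 cholangiocyte marker, Cdh1, rose. Summed pericentral markers ranged from 130045 to 236950 in VPA and from 100824 to 186295 in VPA_OCA, and cholangiocyte markers from 1022 to 1469 and from 1289 to 2153. Both sums overlapped between groups. Summed adipocyte markers did not, at 9605 to 19344 in VPA and 5837 to 9206 in VPA_OCA. Of the 6 tested, 1 fell, Car3, and Lep, the 7th listed, had a median of 0. The adipocyte sum was not split by gene, so how much of its gap came from Car3 is not given. The part of these markers in the GST values was not tested.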

How the data were processed

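The 12 livers (6 VPA, 6 VPA_OCA) were flash frozen, RNA was taken with Trizol and a TruSeq kit gave the libraries, as the labels' protocols state. Group and replicate number were read from each sample title, and each group is 6 mice by the series' design text. The submitters' processing notes name edgeR and the build GRCm38.p5. The aligner, counter, annotation and strand setting: not given in the sources used here. The members and gene lists were chosen with earlier results of these data known.

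The deposited values used are normalized counts, a signal per gene, per the file headers. Low values lay near multiples of 1 step per library (0.559 in VPA_OCA replicate 1, 1.23 in VPA replicate 3, 1.00 to 1.08 in the others), but only 79.8% to 84.8% of values up to 20 steps were within 0.1 of a whole multiple. Whole reads were therefore not recovered and no count model was run; the estimated reads are the totals divided by that step. FPKM as deposited by the authors matched normalized counts per length and column total (ratio 0.9999 to 1.0001) and served for levels. The authors also deposited p-values and adjusted p-values, log2 ratios and a GC fraction per gene, per the file headers. A decimal comma had made 10536 log2 ratios, 238 p-values, 88 adjusted p-values and 89 normalized counts 1000 times too large, and each was divided by that factor. After this, recomputed adjusted p-values over 12517 genes were within 0.538% of the deposited ones. Dates were turned back into 26 gene symbols through the gene ID.

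Genes with at least 1 in at least 6 libraries (19006) were tested on log2(value + 1) in limma 3.58.1 (R 4.3.3; intensity trend, group as the only term, Benjamini-Hochberg adjustment, threshold 0.05), so folds of low genes are understated. Deviations from the group means correlated between same-numbered libraries at 0.48, 0.15, 0.33, 0.20, 0.36 and 0.37 over 11481 genes. Same-numbered libraries also share a number set, which was not removed, so these values do not show that samples were paired. The labels do not say so either, and the main fit treated the samples as unpaired. Only numbers 3 and 5 correlated best with their own number; for 1, 2, 4 and 6 another library reached 0.64, 0.32, 0.53 and 0.51. The block by number and a term for numbers 1 to 3 against 4 to 6 were alternatives, as were other scalings, pseudocounts, filters and leaving out libraries. The fit was tested on simulated data. Named genes were all 10 members; of each other list, those that passed (at most 4) or else the 2 of smallest p; protein-coding genes within 100 kb of a member that passed; and the 3 genes closest in profile to Gsta4, Gsta3, Gstm1, Gstp1 and Gstt1. Figures were drawn with matplotlib 3.10.9.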

Additional observations from a re-analysis of the deposited data

Results flagged for a closer look

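Groups of 6 livers were examined for the members, the neighbours of Gsta4 and the genes that the naming rule took from the other lists. In 2 of these 52 groups 1 liver stood far from the other 5, where chance gives about 1 in 20 such groups. Other genes named in the text were not examined in this way. Srxn1, which encodes sulfiredoxin, was at a normalized count of 1103 in VPA_OCA replicate 6, while the remaining VPA_OCA livers ran from 725 to 866. Gpx7, a peroxidase of the endoplasmic reticulum, was lowest at 45.9 in VPA_OCA replicate 3, and its other VPA_OCA values ran from 74.9 to 86.1. None of the 20 groups of the 10 members was set apart in this way.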

How the results depend on the processing

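Gsta4 passed in all 26 alternatives run, with a log2 fold change of 0.80 to 1.17 and a limma adjusted p of 1.6e-05 to 0.02. Gsta2 stayed positive (0.72 to 0.95; limma adjusted p 0.0075 to 0.19) and passed in 4: the replicate block, the term for number sets, and without VPA_OCA replicate 4 (0.048) or replicate 5 (0.049). The count of members that passed, 1 in the main comparison, was 2 with the replicate block, with the term and at a threshold of 0.1, and 1 to 2 leaving out a library in turn. The block changed no other member's call. Over all genes the count of 137 became 210 with the replicate block (128 shared), 404 with the term (137 shared), 223 at a threshold of 0.1 and 62 at 0.01, and 92 to 146 leaving out a library.

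The interaction of group and number set, with 2 genes in the main comparison, gave 14 with array weights, 0 with FPKM, without the trend and with a pseudocount of 5, 1 with the replicate block, with no filter, without both VPA libraries that held muscle transcripts and at a threshold of 0.01, and 1 to 4 leaving out a library. Signs turned within numbers 1 to 3 for Gsta3 (0.19), Fbxo9 (0.03) and Gm10639 (0.04). They turned within numbers 4 to 6 for Gstm2 (-0.13), Gstm6 (-0.22) and Gsta1 (-0.18), and for Gsta1 without both VPA libraries that held muscle transcripts (-0.03). Leaving out a library gave -0.17 to 0.05 for Gsta3, -0.07 to 0.33 for Gstm1, -0.00075 to 0.31 for Gstm2, 0.11 to 0.39 for Gstm4, -0.04 to 0.11 for Gstm6, -0.02 to 0.21 for Gstp1, -0.27 to 0.37 for Gsta1, -0.89 to 1.46 for Gm3776 and -0.39 to 0.27 for Gm10639. The cause was not tested. Fits on 3 against 3 libraries have less precision because they use fewer samples, and what the number sets are cannot be told from the labels.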

Other observations

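Several GST genes outside the 10 described are among the more abundant liver transcripts and did not pass the limma test. Mgst1, a microsomal enzyme, had a normalized count of 43105 ± 10854 in VPA and 37300 ± 6733 in VPA_OCA (SD, n = 6 each; log2 fold change -0.19, limma adjusted p = 0.81). Gstz1, which takes part in tyrosine breakdown, was at 17217 ± 2106 and 18373 ± 5515 (SD, n = 6 each). Gsto1 of the omega class was at 2226 ± 155 and 2438 ± 401, and the mitochondrial Gstk1 at 1974 ± 250 and 2078 ± 198 (SD, n = 6 each). Among near relatives of the members, Gstt3 was at 3545 ± 576 and 3847 ± 712, Gstp3 at 777 ± 77.7 and 939 ± 304, and Gstm5 at 260 ± 28.5 and 261 ± 32.7 (SD, n = 6 each).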
